A study of Mus musculus with 6 samples.

Results

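A set of 10 genes of microRNA, splicing and mRNA processing was followed in a mouse mammary carcinoma line, D2.OR, with and without depletion of SLX4IP. The 10 genes were Drosha, Snd1 and Zfr (microRNA and double-stranded RNA), Snrpd1, Ptbp3 and Tnpo3 (splicing), Ncbp1 and Pabpc1 (the cap and the poly(A) tail), and Thoc1 and Exosc3 (export and decay). They were picked by symbol from the 53647 Ensembl genes of the deposited table, and all 10 were found and tested. These genes, and the gene lists used further on, were chosen with earlier results of these data known. The tested cells carried a lentiviral hairpin against SLX4IP (shSLX4IP, 3 libraries) and the control cells a scrambled lentiviral hairpin (Scram, 3 libraries). Both groups were selected with puromycin and kept for 7 days in 3D culture on Cultrex, a basement membrane extract, with 10% serum. The labels name 1 hairpin against SLX4IP and do not say whether a group is a clone or a pool. They call the replicates biological without saying that they came from separate cultures, so the p-values measure the spread between these samples, which may be technical.

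A messenger RNA is capped, spliced, given a poly(A) tail and exported before it is translated, and the same nucleus trims primary microRNA transcripts into hairpins. DROSHA is the nuclear RNase III that makes that first microRNA cut, and the cap-binding complex that holds NCBP1 sits on the new cap and links it to splicing, 3' end formation and export. Surveillance is done in part by the RNA exosome, which feeds RNA to 3' to 5' nucleases. Its ring of subunits carries RNA-binding cap subunits, EXOSC3 among them.

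Each value below is a normalised read count, that is, a read count divided by a size factor of the library. Depth was 5433573 to 6693111 reads per library in shSLX4IP cells and 6110599 to 6554748 in Scram cells. A gene of the set had 1028 to 38681 reads in a library. The counting error this gives, as a Poisson coefficient of variation, was 0.540% to 3.01% in shSLX4IP cells and 0.567% to 2.49% in Scram cells. The spread between libraries was above it for 10 of 10 genes in Scram cells and for 8 of 10 in shSLX4IP cells, Drosha and Zfr being the exceptions and Snd1 close to it. The identifiers of the table were read as genes only in the starts of chromosomes 4, 6, 15 and 18. Gene models and reads are taken to agree there because high values run together in neighbouring protein-coding genes. These 4 segments hold 1530 of the features and all 10 genes. Slx4ip itself lies outside them and is listed at 0 in all 6 libraries, so its depletion could not be checked. The defining markers of mammary epithelium could be read for 2 of 8 (Esrp1 and Grhl2), and their summed value was 2.93 to 22.6 in shSLX4IP libraries and 26.2 to 82.0 in Scram libraries, near the bottom of the scale in both. Of 8 mesenchymal or fibroblast markers 3 could be read (Col1a2, Zeb1 and Cav1), with a sum of 15081 to 15818 in shSLX4IP libraries and 41469 to 47066 in Scram libraries. The 3 did not go one way: Col1a2 averaged 271 in shSLX4IP cells and 23243 in Scram cells and Cav1 averaged 13833 in shSLX4IP cells and 21100 in Scram cells, while Zeb1 averaged 1450 in shSLX4IP cells and 690 in Scram cells, the groups not overlapping for any of them. By the test described below, Col1a2 and Cav1 were lower and Zeb1 did not pass (limma adjusted p = 0.0798). Zeb1 was at 349 in Scram A, 961 in Scram B and 760 in Scram C. The 1 leukocyte marker of 6 that could be read, Pax5, was at 3.90 to 17.2 in shSLX4IP libraries and 26.4 to 34.6 in Scram libraries, and 0 of 4 endothelial markers lay in the segments. The part of these markers in the results was not tested.

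One Scram library, Scram A, stood apart. Its values summed to 8948118, against 5276405 to 5974334 in the other 5 libraries. With 6110599 reads it had 8464 features above 0, against 10548 to 11611 in the other 5 libraries. Its short genes were high. Among genes of the segments, the log2 ratio of Scram A over the average of the other Scram libraries had a median of 0.84 in the shortest 118 genes, -0.02 in the middle 117 and -0.27 in the longest 118. Fold changes are therefore given with and without Scram A. They are log2 of shSLX4IP over Scram on values plus 1, from limma with Benjamini-Hochberg adjustment over 8127 features, and a gene is said to have risen or fallen where the adjusted p is under 0.05.

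Of the 10 genes 3 fell in shSLX4IP cells (Ncbp1, Drosha and Thoc1), 0 rose and 7 did not pass the test. Ncbp1 was at 28.3% of its Scram mean, Drosha at 55.8% and Thoc1 at 56.2%. The same test called 11.3% of all 8127 features lower and 11.7% higher. Of the 431 tested features of the segments it called 22.7% lower and 18.3% higher, so 3 of 10 is not far above the share of the segments. The 3 shSLX4IP libraries all lay below the 3 Scram libraries for 6 genes and all above them for 3 (Snd1, Zfr and Tnpo3), while the groups overlapped for 1 (Ptbp3). In the segments 38.1% of tested features did not overlap in the lower direction and 29.5% in the higher one. Over all tested features these shares were 23.4% and 30.2%. The median log2 fold change of the 10 genes was -0.47, beside -0.15 in the segments and 0.25 over all features tested. The last value depends on low features: with a mean of at least 50 required it was 0.079, and the segments stayed at -0.15. As the 10 genes were chosen with earlier results of these data known, these counts and medians do not test them as a set. In bulk RNA, fewer cells of a type and less RNA per cell cannot be told apart.

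**Figure D1:**
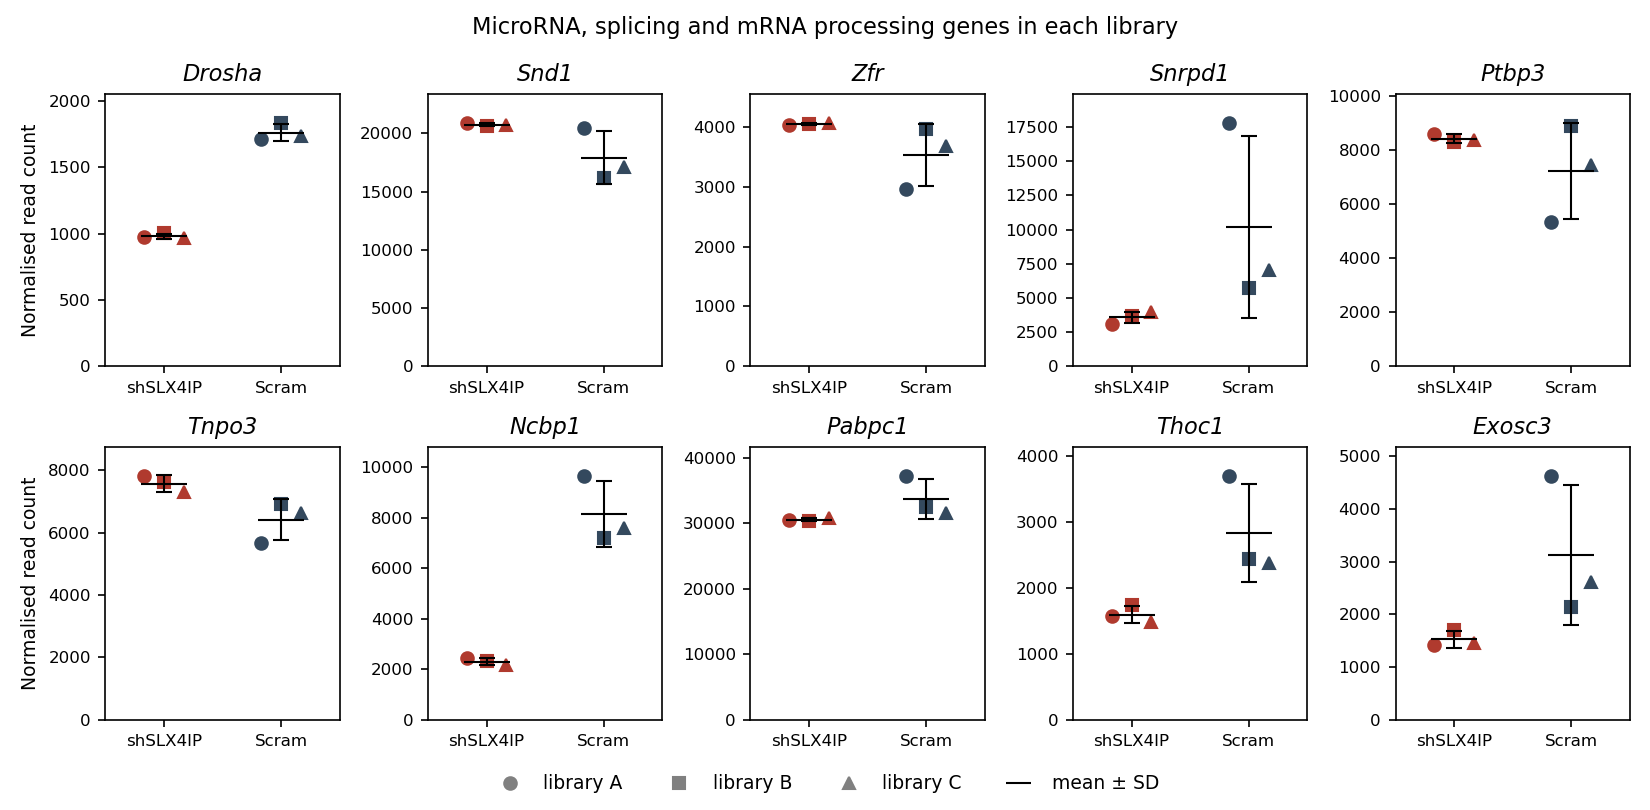
Normalised read count (vertical axes, from 0) of each of the 10 genes in the 3 shSLX4IP and 3 Scram libraries. Points are libraries and bars are the mean and SD. Ncbp1, Drosha, Thoc1, Snrpd1, Exosc3 and Pabpc1 have shSLX4IP points below every Scram point. The Scram points of Snrpd1, Exosc3 and Thoc1 are spread by a high Scram A.

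Promoter stretches of 4 genes are shown, 250 bases up to the start that RefSeq annotates, for a microRNA-processing gene that fell (Drosha), a cap-binding gene that fell (Ncbp1), a short decay gene whose values did not overlap between groups (Exosc3) and a gene that did not pass (Zfr). For Exosc3 and Zfr that start lies inside the GENCODE gene bounds given further on. They are RefSeq sequences on GRCm38.p6, printed 5' to 3' on the gene's strand, at chr15:12824565-12824814 (plus strand, Drosha), chr15:12117601-12117850 (plus strand, Zfr), chr4:46138261-46138510 (plus strand, Ncbp1) and chr4:45320617-45320866 (minus strand, Exosc3). Capitals mark matches on either strand to the TATA box TATAAA, the CCAAT box, the GC box GGGCGG, the ETS core CCGGAA or the E-box CACGTG.
Drosha: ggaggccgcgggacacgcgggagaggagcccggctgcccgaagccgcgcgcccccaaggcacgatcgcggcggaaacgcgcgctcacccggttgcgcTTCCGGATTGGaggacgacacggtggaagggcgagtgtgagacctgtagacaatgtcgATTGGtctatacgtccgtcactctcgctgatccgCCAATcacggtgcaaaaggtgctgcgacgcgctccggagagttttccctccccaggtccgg
Zfr: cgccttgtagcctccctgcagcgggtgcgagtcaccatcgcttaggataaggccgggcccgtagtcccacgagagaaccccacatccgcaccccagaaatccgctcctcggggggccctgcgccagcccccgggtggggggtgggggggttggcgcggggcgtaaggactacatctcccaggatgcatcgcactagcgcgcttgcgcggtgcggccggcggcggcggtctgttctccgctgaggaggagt
Ncbp1: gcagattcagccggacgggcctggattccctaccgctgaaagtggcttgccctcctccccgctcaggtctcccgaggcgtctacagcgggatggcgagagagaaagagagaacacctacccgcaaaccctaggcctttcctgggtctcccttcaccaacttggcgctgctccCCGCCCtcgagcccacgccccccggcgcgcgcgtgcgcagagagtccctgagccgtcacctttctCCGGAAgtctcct
Exosc3: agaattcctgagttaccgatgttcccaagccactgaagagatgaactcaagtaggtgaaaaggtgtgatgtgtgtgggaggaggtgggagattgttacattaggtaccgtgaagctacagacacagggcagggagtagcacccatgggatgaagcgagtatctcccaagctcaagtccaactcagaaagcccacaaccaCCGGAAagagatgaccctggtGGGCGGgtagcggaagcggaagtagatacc
The Drosha stretch holds CCAAT 3 times and CCGGAA 1 time, the 5'-most CCAAT match directly abutting CCGGAA. The Ncbp1 and Exosc3 stretches each hold GGGCGG and CCGGAA 1 time, and the Zfr stretch holds none of the 5 motifs. Of the other genes with a RefSeq entry, Snd1 holds the CCAAT box and GGGCGG 2 times each and CCGGAA 1 time, and Tnpo3 holds CCGGAA 1 time. Pabpc1, Ptbp3, Snrpd1 and Thoc1 had no entry. The ETS core, named for the factor family that recognises it, was in 5 of the 6 promoters found, and 12.0% of 32851 RefSeq promoters hold it in the same window. For the other motifs the shares of the 32851 were 33.8% for CCAAT, 32.7% for GGGCGG, 12.4% for TATAAA and 6.02% for CACGTG. The 32851 were not limited to genes expressed in these cells, so they are not a like background for the 6. These are letter matches and not shown to be bound sites.

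Drosha (ENSMUSG00000022191.17, chr15:12824815-12935291, plus strand) fell. It was at 972, 1004 and 970 in shSLX4IP libraries A, B and C, against 1713, 1835 and 1733 in Scram libraries A, B and C. The groups did not overlap, and Scram A lay with Scram B and C for this gene. The mean was 982 ± 18.9 in shSLX4IP cells and 1760 ± 65.2 in Scram cells (SD, n = 3 each). The log2 fold change was -0.84 (SE 0.13, limma adjusted p = 0.00770), and -0.86 without Scram A (limma adjusted p = 0.000978). With quantile normalization it was -0.54 and missed the threshold (limma adjusted p = 0.0798).

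Snd1 (ENSMUSG00000001424.15, chr6:28475139-28935162, plus strand) encodes a Tudor and nuclease-domain protein found in the RNA-induced silencing complex, which carries microRNAs to their targets. Its values were 20897, 20645 and 20676 in shSLX4IP libraries A, B and C, against 20441, 16149 and 17125 in Scram libraries A, B and C. All shSLX4IP libraries lay above all Scram libraries, by little over Scram A. Its log2 fold change of 0.22 did not pass (SE 0.12, 95% interval -0.09 to 0.53, limma adjusted p = 0.239). Without Scram A it was 0.32 and passed the test (limma adjusted p = 0.00833), and with the length trend of the libraries removed it was -0.16.

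Zfr (ENSMUSG00000022201.17, chr15:12117831-12185683, plus strand) encodes a zinc finger protein that binds double-stranded RNA and takes part in splicing and primary microRNA processing. It was at 4029, 4050 and 4065 in shSLX4IP libraries A, B and C, against 2958, 3959 and 3673 in Scram libraries A, B and C. The shSLX4IP libraries were in a narrow band just above Scram B, and Scram A was the low one. The log2 fold change was 0.21 (SE 0.15, 95% interval -0.16 to 0.58, limma adjusted p = 0.335), and 0.09 without Scram A. The lists drawn up for microRNA biogenesis and silencing held 27 genes, of which Drosha, Snd1 and Zfr were the 3 that could be read.

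Snrpd1 (ENSMUSG00000002477.6, chr18:10617775-10642079, plus strand) encodes SmD1, a core protein of the Sm ring that surrounds the spliceosomal small nuclear RNAs. It was at 3121, 3661 and 3966 in shSLX4IP libraries A, B and C, against 17801, 5740 and 7034 in Scram libraries A, B and C. Every Scram library was above every shSLX4IP library, and Scram A stood far above Scram B and C. The mean was 3583 ± 428 in shSLX4IP cells and 10192 ± 6621 in Scram cells (SD, n = 3 each). With all libraries the log2 fold change of -1.33 did not pass (SE 0.44, limma adjusted p = 0.0814), and without Scram A it was -0.83 and passed (limma adjusted p = 0.00997). A processed pseudogene on chromosome 2, Gm14277, matches 360 bases of its transcript at 97.8% identity, so reads could be split between them.

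Ptbp3 (ENSMUSG00000028382.16, chr4:59471868-59549364, minus strand) encodes a polypyrimidine tract-binding protein, a repressor of alternative exons. Its values were 8602, 8304 and 8368 in shSLX4IP libraries A, B and C, against 5339, 8895 and 7442 in Scram libraries A, B and C. Scram B lay above all shSLX4IP libraries, and this was the only gene of the 10 whose groups overlapped. Its log2 fold change was 0.25 (SE 0.21, limma adjusted p = 0.390), and 0.05 without Scram A.

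Tnpo3 (ENSMUSG00000012535.15, chr6:29540827-29609887, minus strand) encodes transportin-SR, the importin that brings SR splicing factors into the nucleus. It was at 7823, 7616 and 7293 in shSLX4IP libraries A, B and C, against 5674, 6925 and 6639 in Scram libraries A, B and C. The shSLX4IP libraries were all higher, with Scram A the lowest library. The log2 fold change was 0.25 (SE 0.13, 95% interval -0.06 to 0.55, limma adjusted p = 0.201), and 0.16 without Scram A. It shares 411 exonic bases, 3.14% of its exons, with Irf5 on the other strand.

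Ncbp1 (ENSMUSG00000028330.9, chr4:46138613-46172403, plus strand), the large subunit of the nuclear cap-binding complex, had the lowest fold change of the 10 and fell. It was at 2432, 2312 and 2165 in shSLX4IP libraries A, B and C, against 9656, 7202 and 7585 in Scram libraries A, B and C. The highest shSLX4IP library was far below the lowest Scram library. The mean was 2303 ± 134 in shSLX4IP cells and 8148 ± 1320 in Scram cells (SD, n = 3 each). The log2 fold change was -1.81 (SE 0.16, 95% interval -2.20 to -1.43, limma adjusted p = 0.00132), and -1.68 without Scram A (limma adjusted p = 0.000305). Ncbp1 passed the test in 17 of 17 other settings, with fold changes of -1.90 to -1.37.

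Pabpc1 (ENSMUSG00000022283.16, chr15:36595661-36609668, minus strand) encodes the main cytoplasmic poly(A)-binding protein, which coats the tail and supports translation. It was at 30429, 30389 and 30794 in shSLX4IP libraries A, B and C, against 37204, 32422 and 31504 in Scram libraries A, B and C. The shSLX4IP libraries were all lower, and the gap to Scram C was small. Its log2 fold change was -0.14 (SE 0.11, 95% interval -0.40 to 0.13, limma adjusted p = 0.370), and -0.07 without Scram A. A processed pseudogene on chromosome 17, Gm16580, matches 1052 bases at 97.1% identity. It lies outside the segments, so its listed value of 0 cannot be read as its level, and reads could be split between them.

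Thoc1 (ENSMUSG00000024287.9, chr18:9957906-9995489, plus strand) encodes a core subunit of THO, the complex that loads export factors onto spliced mRNA, and it fell by a call close to the threshold. It was at 1567, 1741 and 1476 in shSLX4IP libraries A, B and C, against 3699, 2432 and 2379 in Scram libraries A, B and C. The groups did not overlap and Scram A was the highest library. The mean was 1595 ± 134 in shSLX4IP cells and 2836 ± 747 in Scram cells (SD, n = 3 each). The log2 fold change was -0.80 (SE 0.21, limma adjusted p = 0.0469), and -0.60 without Scram A (limma adjusted p = 0.00664). The call held in 8 of 17 other settings, and leaving out any 1 library other than Scram A ended it (limma adjusted p = 0.0577 to 0.157). Of its exonic bases 24.3% are shared with Usp14 on the other strand, which was at 6196 in shSLX4IP cells and 7621 in Scram cells (log2 fold change -0.30, limma adjusted p = 0.104). A match to Usp14 of 2169 bases covers 52.5% of the longest coding Thoc1 transcript. The libraries were made with a stranded kit, and whether the counting used strand is not given in the sources used here.

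Exosc3 (ENSMUSG00000028322.12, chr4:45316613-45342732, minus strand) encodes an RNA-binding cap subunit of the exosome. It was at 1408, 1698 and 1459 in shSLX4IP libraries A, B and C, against 4624, 2135 and 2618 in Scram libraries A, B and C. All shSLX4IP libraries were lower, and Scram A was far above Scram B and C. With all libraries its log2 fold change was -0.96 and did not pass (SE 0.31, limma adjusted p = 0.0757). Without Scram A it was -0.64 and passed (limma adjusted p = 0.0177).

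**Figure D2:**
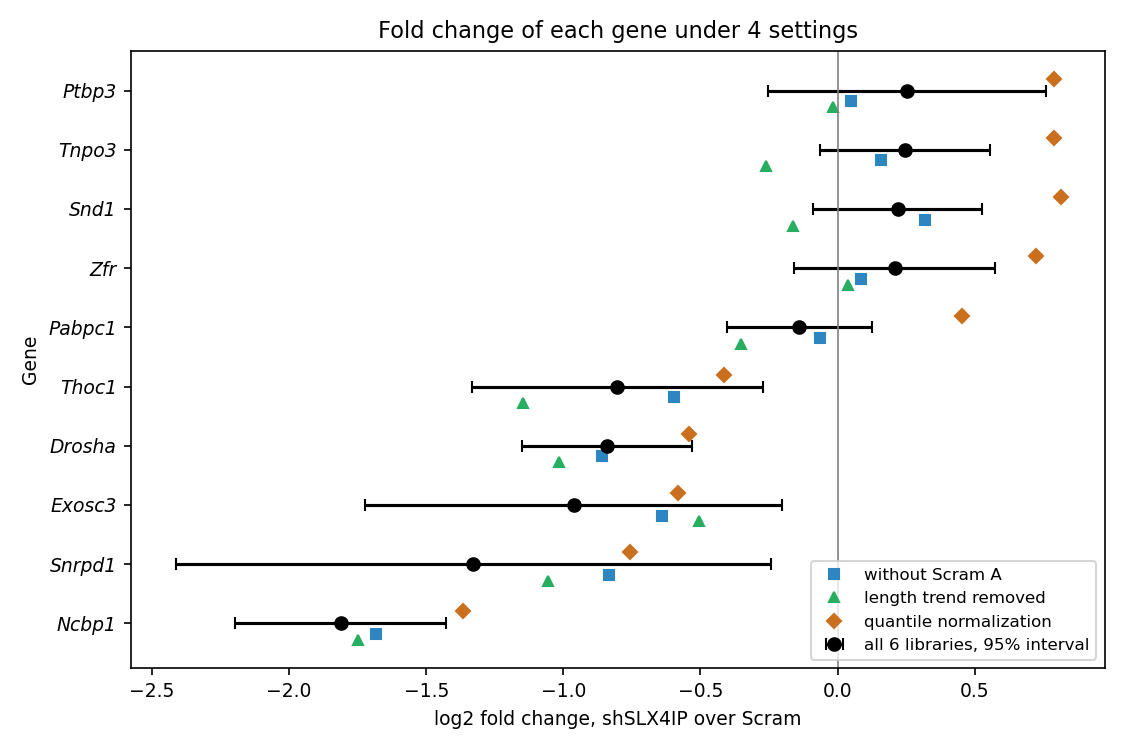
Log2 fold change, shSLX4IP over Scram, of the 10 genes with all 6 libraries (black, 95% interval), without Scram A, with the length trend removed and with quantile normalization. Ncbp1, Snrpd1, Exosc3, Drosha and Thoc1 are below 0 in all 4 settings, while Snd1, Pabpc1, Ptbp3 and Tnpo3 have a setting on each side of 0.

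Scram A was the highest Scram library for 6 of the genes and the lowest for 4 (Drosha, Zfr, Ptbp3 and Tnpo3). The spread between libraries was larger in Scram cells for 10 of 10, with a coefficient of variation of 0.452% to 11.9% in shSLX4IP cells and 3.70% to 65.0% in Scram cells. Over the 10 genes, log10 exonic length went with the log2 ratio of Scram A to Scram B and C at r = -0.69, and with the log2 fold change at r = 0.68. These are descriptions over 10 genes that share the same libraries. Snrpd1 (2.05 kb) and Exosc3 (1.32 kb) had the largest ratios and Ptbp3 (7.48 kb) the smallest. Without Scram A, 5 genes fell (Drosha, Snrpd1, Ncbp1, Thoc1 and Exosc3) and 1 rose (Snd1). The same test then called 1573 of 8127 features lower and 1895 higher, against 920 and 952 with all libraries, so more genes passed in general.

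**Figure D3:**
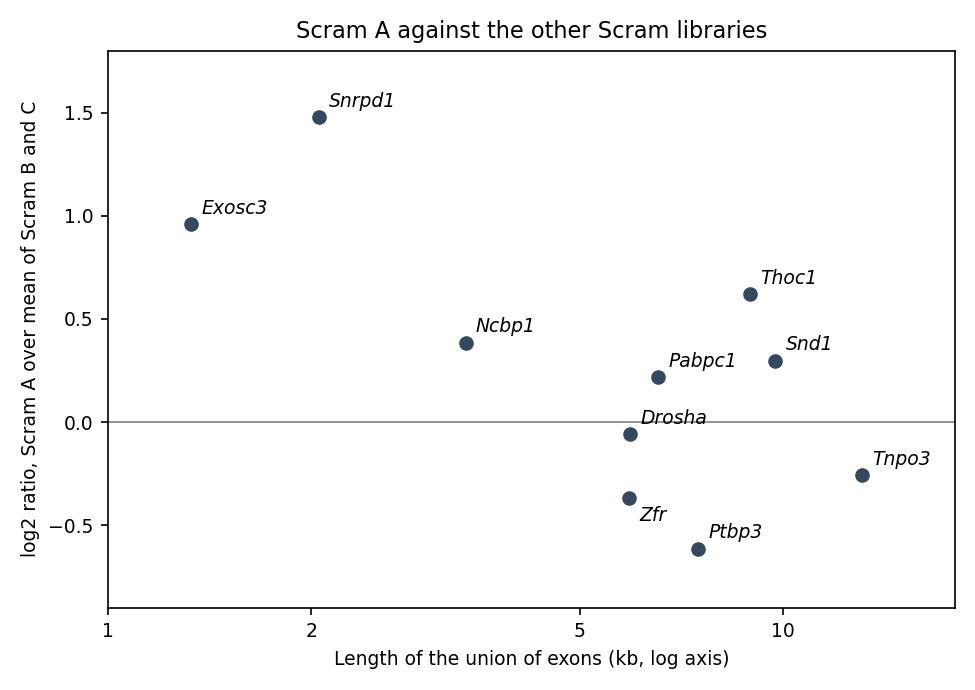
Length of the union of exons (kb, log axis) against the log2 ratio of Scram A over the average of the other Scram libraries, 1 point per gene. Snrpd1 and Exosc3, the shortest genes, sit highest, and Zfr, Ptbp3, Tnpo3 and, by little, Drosha (-0.06) sit below 0.

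Levels can be set against each other only per length, as normalised count per kb of exons. In shSLX4IP cells the order was Pabpc1 (4669 ± 34.2), Snd1 (2126 ± 14.1), Snrpd1 (1746 ± 209), Exosc3 (1149 ± 117), Ptbp3 (1126 ± 20.9), Zfr (685 ± 3.10), Ncbp1 (680 ± 39.6), Tnpo3 (578 ± 20.4), Thoc1 (178.5 ± 15.1) and Drosha (165 ± 3.19), each SD over 3 libraries. The libraries of Exosc3 and Ptbp3, of Zfr and Ncbp1, and of Thoc1 and Drosha overlapped, so those neighbours do not differ beyond their spread. In Scram cells the order of means was Pabpc1 (5154), Snrpd1 (4967), Ncbp1 (2406), Exosc3 (2361), Snd1 (1835), Ptbp3 (966), Zfr (597), Tnpo3 (489.5), Thoc1 (318) and Drosha (297). There the neighbours stood apart only between Snd1 and Ptbp3, Ptbp3 and Zfr, and Tnpo3 and Thoc1. On this length Ncbp1 was at rank 7 in shSLX4IP cells and at rank 3 in Scram cells, and with the longest transcript at rank 8 in shSLX4IP cells and at rank 5 in Scram cells. Pabpc1 was at rank 1 in shSLX4IP cells with either length, and in Scram cells its libraries overlapped those of Snrpd1, which passed it with the longest transcript. With that length Snrpd1 went from 6690 to 20747 per kb over Scram libraries, Scram A being the highest, and Pabpc1 from 10804 to 12758. Drosha was at rank 10 in both groups with either length.

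**Figure D4:**
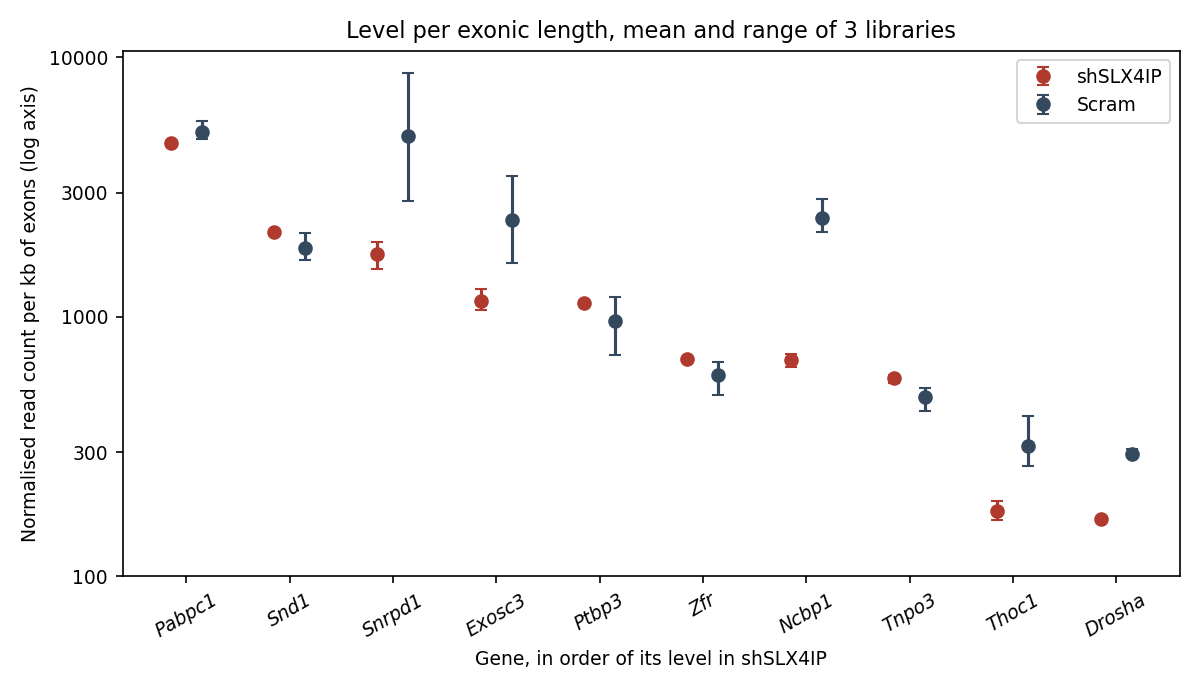
Normalised read count per kb of exons (log axis) of each gene, mean and range of 3 libraries, shSLX4IP left of Scram and genes ordered by their level in shSLX4IP. Ncbp1 ranks below Ptbp3 in shSLX4IP cells and above it in Scram cells, while Drosha is lowest in both groups.

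Together 6 lists of RNA processing genes held 341 genes besides the 10. Of these 18 lay in the segments and 16 were tested; 3 fell and 0 rose, a share of lower calls below the 22.7% of the segments. Their median log2 fold change was -0.40, beside -0.15 in the segments and 0.25 over all features tested. Srsf12, an SR protein, was listed at 0 in all libraries, and Esrp1, an epithelial splicing regulator, was below the mean of 10 set for testing. Each list holds 0 to 5 of the 16, so the counts describe these genes and not the pathways.

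Pop1, the large subunit of RNase P and RNase MRP, which cut transfer and ribosomal RNA precursors rather than mRNA, had the lowest fold change of the 16 and fell. It was at 211, 226 and 289 in shSLX4IP libraries A, B and C, against 1494, 922 and 1034 in Scram libraries A, B and C, without overlap. The log2 fold change was -2.23 (SE 0.25, limma adjusted p = 0.00334), and it passed in 17 of 17 other settings. Pop1 was the only 1 of the 3 tested genes of the decay list to fall.

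Rngtt, the capping enzyme that puts the guanosine on a new transcript, also fell, to 693, 789 and 720 in shSLX4IP libraries A, B and C, against 1089, 1291 and 1336 in Scram libraries A, B and C. The groups did not overlap. Its log2 fold change was -0.75 (limma adjusted p = 0.0232), and the call held in 10 of 17 other settings. It was the only 1 of the 5 tested genes of the cap and 3' end list, leaving out Ncbp1 and Pabpc1, to pass.

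Topors, a ubiquitin and SUMO ligase placed with the splicing proteins, fell to 2640, 2435 and 2410 in shSLX4IP libraries A, B and C, against 3248, 3784 and 3597 in Scram libraries A, B and C. The log2 fold change was -0.50 (limma adjusted p = 0.0390), held in 7 of 17 other settings. None of the other 4 genes of that list passed. Lsm8, of the ring on U6 RNA, had a log2 fold change of -0.71 (limma adjusted p = 0.108), and Smu1, a spliceosome subunit, -0.81 (limma adjusted p = 0.0840). Rbm28, a nucleolar RNA-binding protein, was at -0.49 (limma adjusted p = 0.0547) and Wac, an adaptor protein for histone ubiquitination, at 0.13 (limma adjusted p = 0.553). Without Scram A, Lsm8, Smu1 and Rbm28 passed at -0.44, -0.51 and -0.39, and 7 of the 16 genes fell. In that setting 1573 of all 8127 features were called lower, against 920 with all libraries.

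The remaining genes did not pass. Of the cap and 3' end list, log2 fold changes were -0.32 for Mtpap, the mitochondrial poly(A) polymerase, -0.11 for Ints8, an Integrator subunit, and -0.11 for Virma, of the m6A methylation complex. Casp8ap2, needed for histone mRNA 3' ends, was at -0.53 (limma adjusted p = 0.263), with Scram A the low Scram library. Without that library it was at -0.88 and passed (limma adjusted p = 0.00177). Sem1, shared by the proteasome and an export complex, was at -0.88 with all libraries (limma adjusted p = 0.255), and Scram A held 17486 of it against 4554 and 5301 in Scram B and C. Without that library Sem1 was at -0.27 (limma adjusted p = 0.0563). Zcchc7, an exosome cofactor, was at -0.21, and Pnrc1, a nuclear receptor coactivator with a role in decapping, at 0.56 (limma adjusted p = 0.104), and at 0.73 without Scram A, where it passed (limma adjusted p = 0.0145). Rbm12b1 and Rbm12b2, RNA-binding proteins of the regulator list, were at 0.05 and -0.03.

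**Figure D5:**
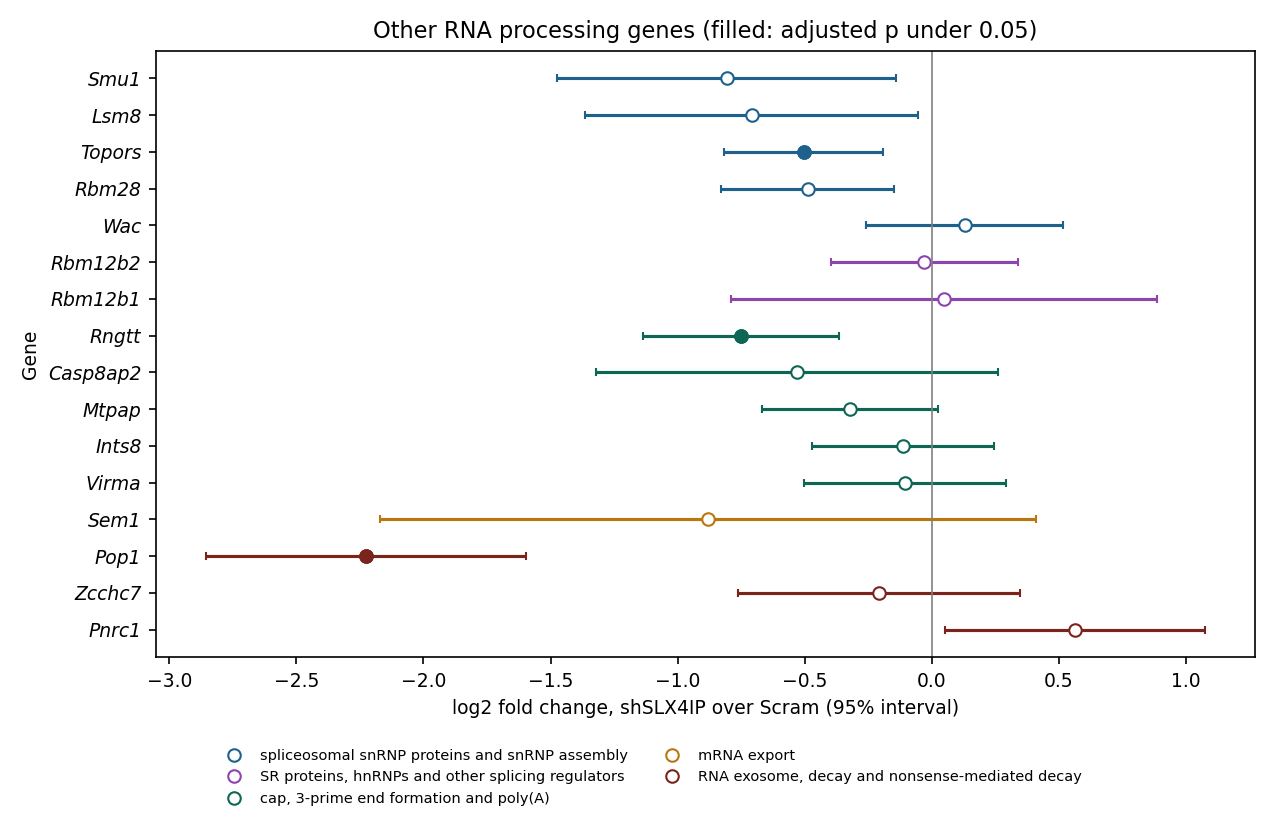
Log2 fold change, shSLX4IP over Scram, with 95% interval for the 16 other RNA processing genes that could be tested, coloured by list; filled points have a limma adjusted p under 0.05. Pop1 lies at -2.23, Rngtt and Topors are the other filled points, and all 3 are below 0.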

How the data were processed

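RNA was sequenced from D2.OR cells, 3 shSLX4IP and 3 Scram libraries. The authors deposited 1 table of a normalised signal: reads per gene divided by a size factor of the library, as its name and values show. The low values of each library are whole multiples of 1 step (0.796 to 1.46). Divided by it, 99.98% to 100% of values above 0 lay within 0.1 of a whole number, which gives reads of 5433573 to 6693111 per library. The submitters' processing notes list DESeq2 1.22.1, StringTie 2.1.7, STAR 2.7.7 and fastp 0.19.5 with GRCm38 (mm10). No source used here gives the annotation release or the strand setting. Of 53647 identifiers 52093 matched GENCODE M21 without version, and 35 with it, and 36965 were at 0 in every library. Genes are read only in segments of neighbouring protein-coding genes with high means: a mean of at least 1000 over all 6 libraries scored 3, any other gene -1, and segments of at least 30 were kept (the highest other scored 18). Coordinates are M21 on GRCm38.

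Features with a mean of at least 10 were tested in R 4.3.3 by limma 3.58.1 with its intensity trend, 2-sided and with no block, after log2 transformation of the value plus 1. The test was also tried on counts simulated from the means, size factors and dispersions of these libraries, with an outcome not given here. Count tests on the recovered reads used edgeR 4.0.16 (734 features higher, 791 lower) and DESeq2 1.42.0 (1323 higher, 1409 lower), beside 952 higher and 920 lower in limma. Other settings were 2 pseudocounts (0.5 and 5), filters, TMM, quantile normalization, no trend, a regression on exonic length within the segments, the same fit to the segments without it, and leaving out each library. All 10 members are named, and all other tested genes of the lists, being 20 or fewer. Near copies were found with BLAST 2.17.0 (at least 200 bases at 95% identity). The members and lists were chosen with earlier results of these data known.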

Additional observations from a re-analysis of the deposited data

How the results depend on the processing

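Over the 10 genes and 17 other settings, 143 of 170 gene and setting pairs kept their direction and side of the threshold, 13 passed newly, 10 lost the call and 4 turned; for the 16 other genes it was 215, 22, 17 and 18 of 272. Quantile normalization moved the median log2 fold change of all features to -0.0028, against 0.25 without it, and that of the segments to 0.10, against -0.15; with it Drosha was -0.54, Thoc1 -0.41, Snd1 0.81, Pabpc1 0.45, Snrpd1 -0.76 and Exosc3 -0.58. With the length trend removed Snd1 was -0.16, Ptbp3 -0.018, Tnpo3 -0.26, Snrpd1 -1.06 and Exosc3 -0.51. DESeq2 gave -1.51 for Snrpd1 and -1.04 for Exosc3, and both passed at unchanged values (-1.33 and -0.96) when limma was refitted to the 431 tested features of the segments alone and adjusted over them, a setting chosen after seeing the data. Thoc1 lost its call with no filter or no trend (-0.80 each) and with edgeR (-0.83). Leaving out 1 library gave -0.86 to -0.81 for Drosha, 0.15 to 0.32 for Snd1, 0.09 to 0.30 for Zfr, -1.65 to -0.83 for Snrpd1, 0.05 to 0.42 for Ptbp3, 0.16 to 0.30 for Tnpo3, -1.90 to -1.68 for Ncbp1, -0.19 to -0.07 for Pabpc1, -0.91 to -0.60 for Thoc1 and -1.20 to -0.64 for Exosc3.

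Genes that fell numbered 5 with DESeq2, with the length trend removed and with the refit to the segments, and 2 to 5 with 1 library left out; 1 rose (Snd1) with quantile normalization, and 0 to 1 with 1 library left out. Of the 16 others, 1 fell with no filter, with quantile normalization and with no trend, 5 with DESeq2 and with the refit to the segments, 10 with the length trend removed, and 1 to 7 with 1 library left out. In those, 1 rose with quantile normalization, with the length trend removed and with the refit to the segments, and 0 to 1 with 1 library left out. Calls over all features moved too. With the length trend removed 159 of 431 features were lower and 128 higher. With the refit it was 131 and 106, beside 98 and 79 of them in the main test. Of 8127 features, 1409 were lower with DESeq2, 1269 with quantile normalization and 756 with no trend, beside 920 in the main test. With no filter 811 of 16682 were lower. Leaving out 1 library gave 410 to 1573 lower and 433 to 1895 higher. With the length of the longest transcript, 5 of the 10 genes kept their rank by level in shSLX4IP cells and 3 in Scram cells. Among the others, direction turned with quantile normalization for Rbm28 (0.0089), Rbm12b1 (-0.025), Rbm12b2 (0.14), Mtpap (0.036), Ints8 (0.35), Virma (0.42), Zcchc7 (0.083), Usp14 (0.24), Tstd2 (0.13) and Dcaf10 (0.27), with the length trend removed for Wac (-0.044) and Rbm12b2 (0.023), and with edgeR (-0.017) and DESeq2 (-0.019) for Rbm12b1. Leaving out 1 library gave -0.0037 to 0.24 for Wac, -0.29 to 0.26 for Rbm12b1, -0.091 to 0.014 for Rbm12b2, -0.21 to 0.021 for Virma and -0.35 to 0.012 for Zcchc7. The cause of these changes was not tested.

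No paired analysis was possible because the table's columns carry letters, the labels carry replicate numbers, and nothing ties a letter to a number.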

Other observations

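The protein-coding genes before and after each of the 10, in order of start position, were also read. Of these 20 neighbours 16 were tested, 4 fell and 3 rose, beside 22.7% lower and 18.3% higher in the segments. The gap between a gene and its neighbour went from 0 bases, where they overlap, to 161101 bases between Pabpc1 and Ywhaz. The neighbours named were chosen after their values were seen. The largest changes were of Colec12, a scavenger receptor gene next to Thoc1, which fell to 30.6 ± 17.5 in shSLX4IP cells, against 3317 ± 173 in Scram cells (log2 fold change -6.86, limma adjusted p = 0.000506), and of Tspan33, a tetraspanin gene next to Tnpo3, which rose to 615 ± 61.6 in shSLX4IP cells, against 26.3 ± 22.1 in Scram cells (log2 fold change 4.82, limma adjusted p = 0.00467). Ywhaz, a 14-3-3 protein gene next to Pabpc1, fell to 9845 ± 110.1 in shSLX4IP cells, against 27977 ± 3232 in Scram cells (SD, n = 3 each; log2 fold change -1.50, limma adjusted p = 0.00107), and it passed in 17 of 17 other settings. Pabpc1 itself did not pass. Hsdl2, a peroxisomal dehydrogenase-like gene next to Ptbp3, rose to 1616 ± 43.0 in shSLX4IP cells, against 788 ± 19.5 in Scram cells (log2 fold change 1.04, limma adjusted p = 0.00429).

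Both neighbours of Zfr fell while Zfr did not pass. Sub1, a transcription coactivator, had a log2 fold change of -1.70 (limma adjusted p = 0.0359), held in 12 of 17 other settings, and Scram A held 7760 where Scram B held 2732 and Scram C 3149. Mtmr12, a myotubularin-related protein, was at -0.66 (limma adjusted p = 0.0444), held in 7 of 17. Irf5, an interferon regulatory factor that overlaps the end of Tnpo3, rose to 502 ± 25.5 in shSLX4IP cells, against 173 ± 21.9 in Scram cells (log2 fold change 1.54, limma adjusted p = 0.00431). The neighbours of Ncbp1, which overlap its ends, did not pass. Tstd2 was at 1709 ± 43.2 in shSLX4IP cells and 2001 ± 86.0 in Scram cells (log2 fold change -0.23, limma adjusted p = 0.217). Xpa, a nucleotide excision repair gene, was at 764 ± 65.2 in shSLX4IP cells and 674 ± 328 in Scram cells (log2 fold change 0.28, limma adjusted p = 0.559). Dcaf10, which overlaps Exosc3 by 53 exonic bases, was at -0.13 (limma adjusted p = 0.572). Without Scram A, Xpa passed at 0.65 and Tstd2 at -0.26.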
